A study of Mus musculus with 16 samples.

Results

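Splenic CD4+ T cells of mice bred to lack NEMO in the T-cell lineage were compared with those of Cre control mice. All had nephrotoxic serum nephritis. In this model serum raised in sheep against kidney tissue is injected and an immune attack on the glomeruli follows. The comparison takes 5 of the 16 arrays of the series: 2 from NEMO knockout mice (titled NTN_CD4xNEMO) and 3 from Cre controls (titled NTN_CD4cre), chosen by those titles alone. Both groups carry Cre recombinase driven by the CD4 promoter (CD4cre). The knockout group also carries the floxed NEMO allele (NEMOfl/fl in the growth protocol, NEMOfl/f in the strain label), and the control group carries CD4cre without a floxed allele. The animals of both groups were male and 8 to 10 weeks old, received 2.5 mg of nephrotoxic serum per gram of body weight into the peritoneum, and gave spleens on day 10. Beside these arrays stand 2 NEMO and 3 CD4cre arrays from animals labelled as having no inflammation, and 3 arrays of IKK2 knockout mice (CD4cre with floxed IKK2, the gene Ikbkb) with nephritis. Nothing in the labels tells whether each array is a different animal. The p-values below therefore measure only the spread between these samples.

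The CD4 promoter becomes active while thymocytes carry both CD4 and CD8. By this design a floxed allele should be lost in CD4 and CD8 T cells alike before they mature. How far it was lost in the sorted cells is not shown by these arrays. Per the labels, deletion was checked by PCR in sorted CD4+ and CD4- splenocytes. An isolation kit followed by flow sorting gave the CD4+ cells, and RNA was taken with 1 of 2 kits according to cell number, which the labels do not tie to single samples. The series is titled for a difference between NEMO and IKK2 in the noncanonical pathway, which is the question that the comparison with the IKK2 knockout addresses.

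NEMO, encoded by Ikbkg, is the regulatory subunit of the IκB kinase complex. With its kinase partners IKK1 (Chuk) and IKK2 (Ikbkb) it passes signals from the T-cell receptor, CD28 and TNF receptors to the canonical pathway, in which IκB proteins are degraded and dimers of Rela and Nfkb1 enter the nucleus. The noncanonical pathway needs no NEMO: the kinase NIK (Map3k14), held down by Traf2, Traf3 and the Birc proteins, activates IKK1, which makes the Nfkb2 precursor mature to p52 as a partner of Relb. In T cells canonical signalling is known for survival, for the transition from naive to effector cells and for regulatory T-cell development.

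Levels are given as log2 of the processed signal minus the 75th percentile of the array, so that 0 is the 75th percentile of all non-control probes and a difference of 1 is a 2-fold change. Differences are NEMO minus Cre with the standard error (± SE) and the Benjamini-Hochberg adjusted p of limma, a linear model with moderated variances fitted to all 16 arrays, and a gene is said to be called, to rise or to fall where that adjusted p was under 0.05.

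The 2 NEMO arrays correlated with r = 0.993 over the genes tested, the Cre arrays with r from 0.971 to 0.982, and the pairs across the groups with r from 0.938 to 0.957. Genes differing by more than 1 log2 between the NEMO arrays numbered 455, with a median absolute difference of 0.125. All NEMO arrays of the series, and no others, were on slide 3, while the nephritic Cre and IKK2 arrays were on slide 1 and the untreated Cre arrays on slide 2, so slide and knockout cannot be told apart in any comparison with NEMO. Negative control spots of slide 3 read 16.4 to 17.7 intensity units, those of slide 2 read 19.5 to 22.4 and those of slide 1 read 40.5 to 46.0. Cre array 2 had a dim corner: 223 of its spots lay more than 3 log2 below both other Cre arrays, and 216 of these (96.9%) fell in a block holding 15.1% of the spots. The 2 groups differed little in the defining T-cell gene: Cd4 read 5.94 and 5.99 on the NEMO arrays and 6.07, 6.0 and 5.87 on the Cre arrays.

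The targeted gene was only slightly lower by its transcript. The Ikbkg probe used here read -0.71 and -0.59 on the NEMO arrays and -0.26, -0.40 and -0.26 on the Cre arrays. The groups did not overlap, and the difference was -0.34 ± 0.11 (adjusted p = 0.0196; exact permutation p = 0.1, two-sided, the smallest that 2 against 3 arrays allow). The call was lost in 7 of 17 other settings: without NEMO array 1 (-0.28, adjusted p = 0.139), without Cre array 1 (-0.32, adjusted p = 0.0544), with normexp background correction (-0.28), with the percentile taken over detected probes (-0.28), with median scaling (-0.18), in the authors' deposited log2 values (-0.30) and for the mean of its probes (-0.16). A second Ikbkg probe differed by 0.02 (exact permutation p = 0.9), with overlapping groups. The positions of these probes relative to the floxed exons were not used here, so neither probe checks the deletion.

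The difference between the groups was broad. Of 14675 genes tested, 7096 were called (48.4%): 2758 rose in the NEMO arrays (18.8%) and 4338 fell (29.6%). A change of 2-fold or more was seen in 1675 genes that rose (11.4%) and 1032 that fell (7.03%). On all 5 arrays without overlap, 3919 genes were higher in NEMO (26.7%) and 6386 lower (43.5%). The median difference over all genes was -0.14 and became 0.03 when arrays were scaled by their median, which turned the majority of calls from lower to higher (3086 higher, 2099 lower, 59.5% higher against 38.9% in the main scaling). The share of calls that were higher was 47.8% after quantile normalisation, 47.9% in the authors' deposited log2 values, 32.5% with another background correction and 26.2% without a filter on dim probes. Genes called higher under the main setting and all 5 other scalings or background corrections numbered 2057, genes called lower 1864, and 9 genes were called the opposite way in at least 1 of them. A first principal component of the 5 arrays held 67.3% of their variance.

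Receptors for interleukin-1 and interleukin-17 were among the genes that rose most. Il1r1, the signalling receptor for interleukin-1, read 2.06 and 2.33 on the NEMO arrays and -4.64, -5.38 and -3.82 on the Cre arrays. Its probe was well above background on both NEMO arrays but on 1 of the 3 Cre arrays only. The difference was 6.81 ± 0.65, or 6.25 (76.0-fold) with the dim Cre readings raised to the weakest signal well above background on their array. Il17rc and Il17re, both subunits of receptors of the interleukin-17 family, rose by 6.38 ± 0.67 and 6.31 ± 0.62. Several further genes were not well above background on any Cre array, so only a lower bound can be given: Mal, a raft protein of T cells and epithelia, was at least 24.3-fold higher in NEMO, the membrane-bound metalloproteinase Mmp25 at least 22.5-fold, the glycosyltransferase Galnt3 at least 13.6-fold and the microtubule regulator Stmn2 at least 10.6-fold.

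Among genes that fell, the decoy TNF receptor Tnfrsf26 stood first. Its probe read -6.54 and -6.10 on the NEMO arrays, not well above background, and 2.06, 1.82 and 1.85 on the Cre arrays, which is at least 164-fold lower (adjusted p = 4.94e-05). Dapl1, a transcript of naive T cells, read 1.12 and 0.07 against 6.15, 5.74 and 5.69 and fell by 5.26 ± 0.33. Alcohol dehydrogenase Adh1 fell by 4.75 ± 0.25, the glutamate receptor Grm6 by 4.43 ± 0.21 and the unconventional myosin Myo6 fell by 4.36 ± 0.35, with its probe well above background on 1 of the 2 NEMO arrays. The plot of gene lists shows how the members of the groups described below spread around these extremes. Counts for these lists stand beside 18.8% of all genes that rose and 29.6% that fell.

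**Figure D1:**
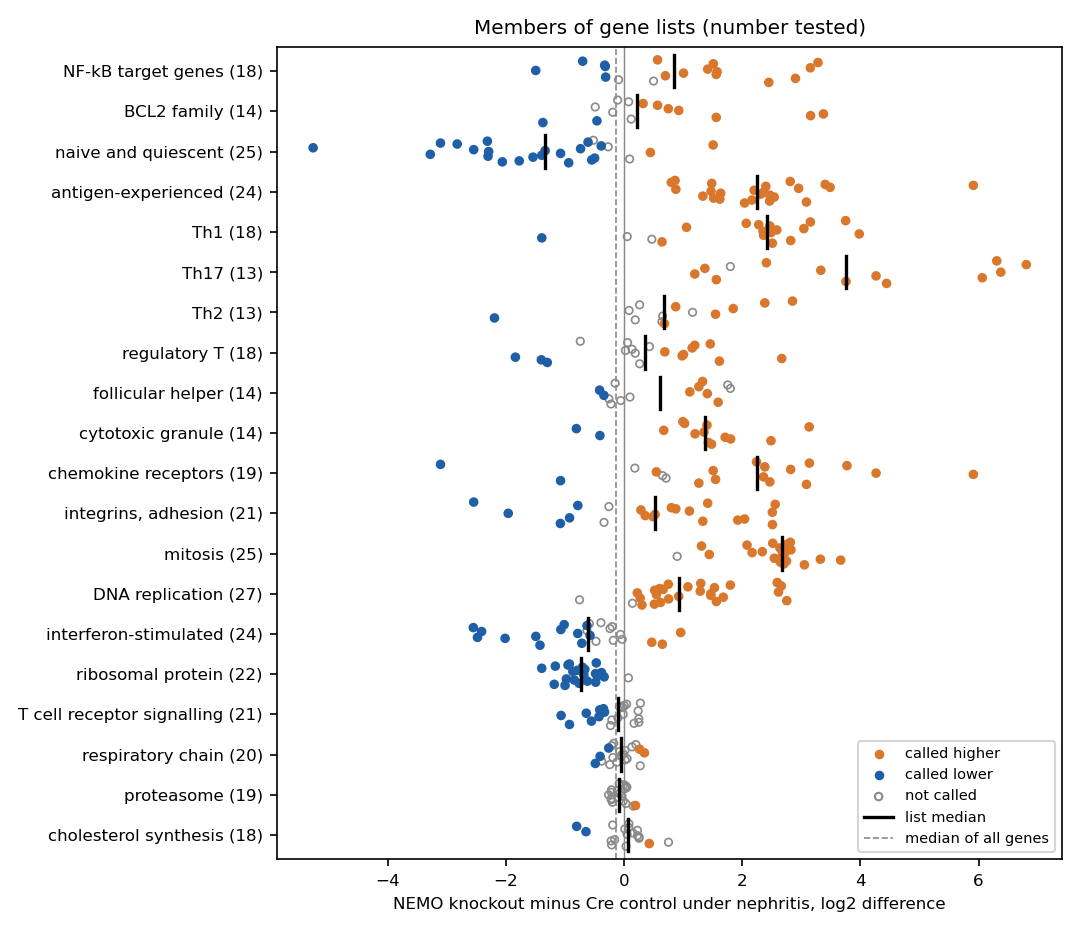
Difference NEMO minus Cre under nephritis (log2, x axis) for every tested member of the gene lists (y axis), 1 point per gene, filled where called (limma adjusted p under 0.05). The mitosis, T helper 17 and antigen-experienced lists lie to the right of 0. The naive and ribosomal lists lie mostly to the left, with highest members at 1.51 and 0.07, beside a median over all genes of -0.14.

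Within the NF-κB pathway the kinases were lower or little different. Of the 5 genes of the IKK family, 3 fell and none rose, with a median of -0.34. Ikbke, an IKK-related kinase of antiviral signalling, read 1.6 and 1.77 on the NEMO arrays and 2.81, 2.67 and 2.58 on the Cre arrays, and fell by 1.0 ± 0.13 (adjusted p = 6.66e-05). Ikbkb fell by 0.48 ± 0.12, a call lost without NEMO array 1 (-0.44, adjusted p = 0.0537). Ikbkb read 2.78 and 2.86 on the NEMO arrays and 3.02, 2.95 and 2.91 on the arrays of the IKK2 knockout, where it is the targeted gene. None of the 5 genes of the family was called for IKK2 against Cre. Chuk, the kinase shared by both pathways, differed by -0.05 ± 0.09 and Tbk1 by -0.16 ± 0.09 for NEMO against Cre, neither of them called. Without NEMO array 1 the count for the family was 1 lower, and scaled by the median it was also 1 lower.

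The subunits of the transcription factor moved in opposite directions. Rela, the activating subunit of the canonical dimer, read 5.93 and 6.0 against 6.56, 6.45 and 6.27 and fell by 0.46 ± 0.09 (adjusted p = 0.00119; not called with median scaling). Nfkb2, the precursor of p52, read 2.21 and 2.57 against 1.70, 1.96 and 1.77. Its rise of 0.58 ± 0.14 (adjusted p = 0.00596) was lost without NEMO array 2 (0.40, adjusted p = 0.0902). Nfkb1 and Relb each differed by 0.20 (± 0.13 and ± 0.14, adjusted p = 0.222 and 0.256), and the groups overlapped for both. A second Nfkb1 probe, dimmer than the one used, was higher in NEMO by 1.05 (limma, unadjusted p = 9.44e-05).

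Genes that restrain the pathway were for the most part not called. Nfkbia, which encodes IκBα and is itself a target of the pathway, differed by 0.04 ± 0.08, with overlapping groups. Nfkbib, another IκB, rose by 0.41 ± 0.12, but not without NEMO array 2 (0.28, adjusted p = 0.15). Tnfaip3, which encodes the deubiquitinase A20, was higher on both NEMO arrays (3.45 and 3.57 against 3.14, 3.03 and 2.93) without being called (0.47 ± 0.18, adjusted p = 0.0512). Over the 11 inhibitors, 2 rose and none fell, with a median of 0.15, and without NEMO array 2 none was called in either direction. Nfkbie lies in the dim corner of Cre array 2, where it read -1.54 against 2.59 and 2.40 on the other Cre arrays: it was not called with that array (1.78 ± 0.89) and was called without it (0.44, adjusted p = 0.032).

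Upstream of the kinase complex, 9 of 14 genes that carry T-cell receptor, TNF receptor and Toll-like receptor signals fell and 2 rose, with a median of -0.33. With median scaling these counts were 2 and 2. Prkcq, the protein kinase C of the immunological synapse, read 4.41 and 4.33 on the NEMO arrays and 5.16, 5.10 and 4.94 on the Cre arrays, and fell by 0.70 ± 0.11. The ubiquitin ligases Traf6 and Traf5 fell by 0.60 ± 0.11 and 0.58 ± 0.12 (Traf5 was not called with median scaling). Map3k7, which encodes the kinase TAK1, rose by 0.37 ± 0.07. The call for Map3k7 did not hold for the mean of its probes.

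The noncanonical core showed small differences. Over its 8 genes, Nfkb2 rose, Map3k14 and Birc3 fell, and the median was 0.04. Map3k14, the kinase NIK, read 3.28 and 3.30 on the NEMO arrays and 3.67, 3.71 and 3.55 on the Cre arrays, a difference of -0.35 ± 0.12 (adjusted p = 0.0262). Its call was lost without NEMO array 1 (-0.34, adjusted p = 0.109), NEMO array 2 (-0.36, adjusted p = 0.0972), Cre array 1 (-0.34, adjusted p = 0.0628) or Cre array 2 (-0.32, adjusted p = 0.0721). Birc3, a ubiquitin ligase that helps degrade NIK and a canonical target, fell by 0.51 ± 0.13 but was not called with median scaling. Traf2, Traf3, Birc2 and Chuk were not called. Another, dimmer Traf2 probe was higher in NEMO by 1.37 (limma, unadjusted p = 0.000532), against 0.16 for the probe used. Without NEMO array 2, no gene of this core rose and 1 fell, with a median of -0.01, and leaving out NEMO array 1, Cre array 1 or Cre array 2 also left 1 lower. With median scaling none fell.

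Larger differences were found among the ligands and receptors that feed the noncanonical pathway, where 7 of 15 genes rose and 2 fell, with a median of 0.65. Tnfsf14, the ligand LIGHT, read 3.83 and 3.93 on the NEMO arrays and 0.74, 1.18 and 1.36 on the Cre arrays, a rise of 2.79 ± 0.48 (adjusted p = 0.000588). Ltbr, the lymphotoxin-β receptor, rose by 1.98 ± 0.50 from low levels: it read -1.16 and -1.18 against -4.44, -2.36 and -2.65. Its rise was 1.33 without Cre array 1, and it was not called when only the arrays compared were fitted. Tnfsf11, the ligand RANKL, rose by 1.33 ± 0.25. In the other direction Cd27, a costimulatory TNF receptor of naive and memory T cells, read 1.41 and 1.5 against 3.66, 3.62 and 3.41 and fell by 2.11 ± 0.12 (adjusted p = 3.5e-07). Ltb, lymphotoxin-β, fell by 0.64 ± 0.11, a call that quantile normalisation and the authors' deposited log2 values did not give. The receptor Cd40 was not called (2.0 ± 0.89, adjusted p = 0.0812), with Cre array 1 at -6.44 far below the other Cre arrays at -2.17 and -2.80. It was called without Cre array 1 (0.68, adjusted p = 0.0428) and without Cre array 2 (2.82, adjusted p = 0.0156), whose Cd40 spot lies in the dim corner.

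Known target genes of NF-κB were more often higher than lower. Of 18 targets, 11 rose and 5 fell, with a median of 0.85. Leaving out 1 array at a time gave 8 to 11 higher and 2 or 3 lower, and other scalings or background corrections gave 11 higher and 2 lower. Ier3, an early-response survival gene, read -0.17 and -0.61 on the NEMO arrays and -3.16, -3.97 and -3.88 on the Cre arrays and rose by 3.28 ± 0.54 (adjusted p = 0.000463). The cytokine Csf2 (GM-CSF) rose by 2.90 ± 0.33 and the chemokine Ccl4 by 3.15 ± 0.76. Il2, the T-cell growth factor, read 0.70 and 0.66 against -1.67, -1.67 and -1.96 and rose by 2.45 ± 0.32 (adjusted p = 9.43e-05). Its receptor chain Il2ra rose by 1.01 ± 0.29 but not without NEMO array 2 (0.70, adjusted p = 0.145). Tnf rose by 1.51 ± 0.27. The largest fall was that of Myc, the growth regulator, which read 0.85 and 0.51 against 2.32, 2.14 and 2.07 and fell by 1.5 ± 0.18 (adjusted p = 4.07e-05). Ccnd2, a cyclin of early cell-cycle entry, fell by 0.70 ± 0.12.

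**Figure D2:**
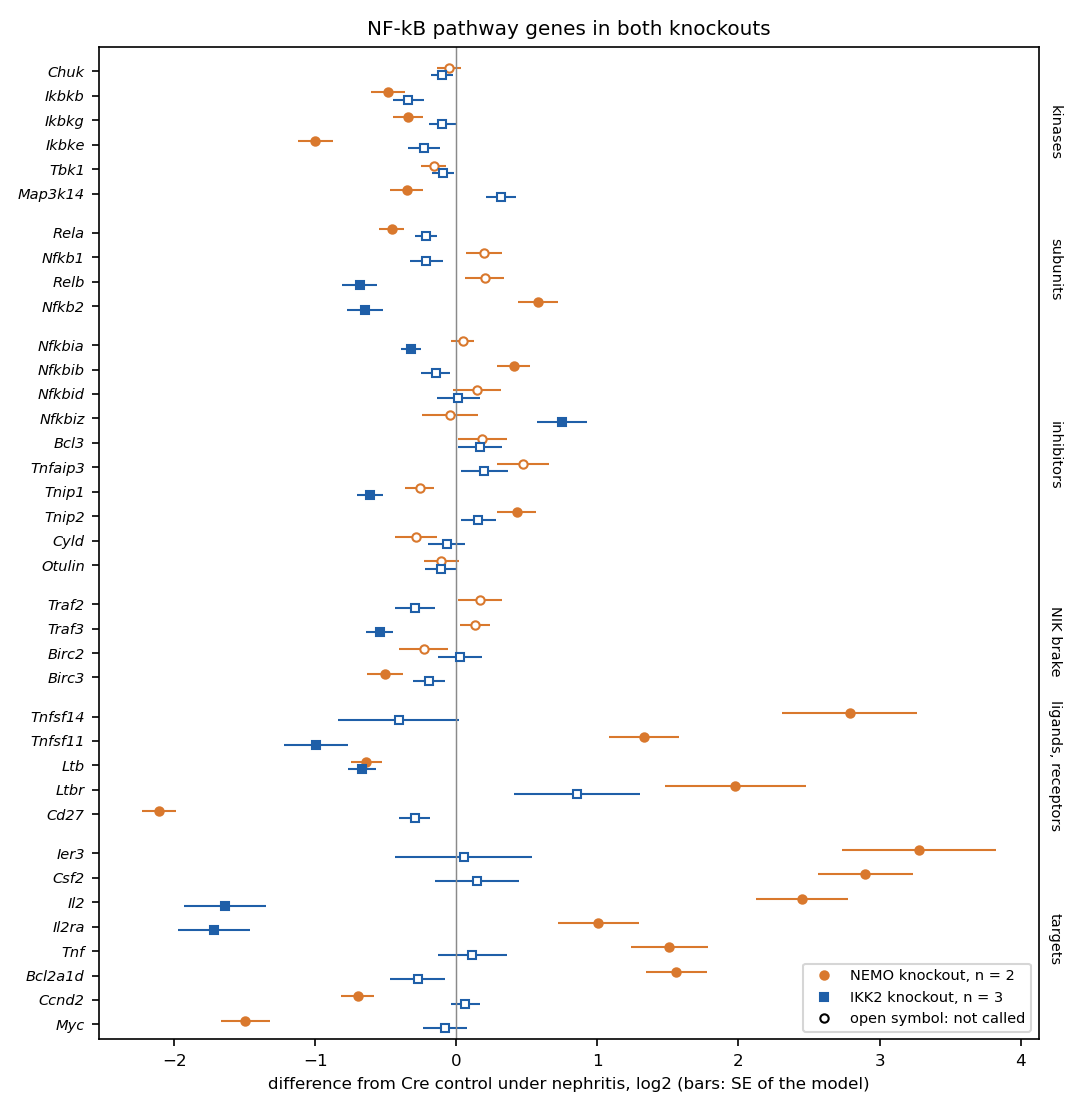
Differences against the nephritic Cre arrays (log2, error bars ± SE) for NF-κB genes ordered by role, orange for NEMO (2 arrays) and blue for IKK2 (3 arrays), open symbols where not called. Tnfsf14 at 2.79 and Cd27 at -2.11 lie far from 0 for NEMO, while Chuk lies at -0.05; both comparisons use the same 3 Cre arrays.

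The promoters of 3 called genes of the pathway show what the canonical motif looks like in front of genes that rose. The kB consensus, searched by that name on both strands with overlapping matches counted, was looked for in RefSeq promoters (GRCm38.p6), from 250 bases before to 50 after each gene start. A gene counts where any of its listed starts holds the motif. It was present for 9.55% of 27025 genes with a promoter, 11.8% of the 11709 of them that were tested, 12.1% of genes that rose 2-fold or more and 12.7% of genes that fell 2-fold or more. Among the inhibitors 7 of 10 genes with a promoter held it (70%), Nfkbia and Tnfaip3 among them, and among the targets 5 of 14 (35.7%). The sequences run 5′ to 3′ on the strand of the gene and end 30 bases after the start, with the matches in capitals: Ier3 at chr17:35821463-35821742 (plus strand, 1 match, 92 bases before the start), Il2ra at chr2:11642542-11642821 (plus strand, 2 overlapping matches, the first 201 bases before) and Nfkb2 at chr19:46304487-46304766 (plus strand, 3 matches, the first 39 bases before, at the first of 3 listed starts that has a match).
Ier3: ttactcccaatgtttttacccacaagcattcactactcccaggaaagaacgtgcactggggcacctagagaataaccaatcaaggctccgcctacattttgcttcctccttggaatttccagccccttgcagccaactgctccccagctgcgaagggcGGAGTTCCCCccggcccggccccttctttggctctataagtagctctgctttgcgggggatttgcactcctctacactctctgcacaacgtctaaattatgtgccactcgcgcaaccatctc
Il2ra: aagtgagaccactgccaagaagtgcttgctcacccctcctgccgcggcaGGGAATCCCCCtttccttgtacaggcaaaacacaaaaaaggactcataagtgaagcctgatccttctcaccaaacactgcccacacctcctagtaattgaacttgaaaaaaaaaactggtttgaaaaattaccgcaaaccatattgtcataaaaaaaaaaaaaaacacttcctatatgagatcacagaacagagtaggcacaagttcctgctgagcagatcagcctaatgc
Nfkb2: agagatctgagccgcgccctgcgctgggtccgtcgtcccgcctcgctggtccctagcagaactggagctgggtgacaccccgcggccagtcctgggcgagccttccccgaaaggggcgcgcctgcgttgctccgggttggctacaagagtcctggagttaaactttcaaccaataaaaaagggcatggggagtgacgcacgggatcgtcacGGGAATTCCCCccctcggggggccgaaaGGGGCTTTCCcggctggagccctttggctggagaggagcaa
A match in these windows is a description of the letters and was not tested as a binding site.

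Genes of cell survival and death changed on both sides. Bcl2, the main survival protein of resting T cells, read 2.96 and 2.86 on the NEMO arrays and 4.13, 4.47 and 4.25 on the Cre arrays and fell by 1.38 ± 0.13. Mcl1, another survival protein, fell by 0.46 ± 0.10 (not called with median scaling, normexp background correction or the authors' deposited log2 values). The pro-apoptotic genes Pmaip1 (Noxa) and Bik rose most: Pmaip1 read 2.94 and 2.93 against -1.09, 0.12 and -0.33, a rise of 3.37 ± 0.40 (adjusted p = 4.45e-05), and Bik rose by 3.16 ± 0.35. Yet Bcl2a1d, a survival member of the family and an NF-κB target, also rose by 1.56 ± 0.22. Over the 14 genes of the BCL2 family 7 rose and 2 fell, with a median of 0.22.

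In the list of death receptors and necroptosis, 7 of 13 genes rose and 3 fell (median 0.31), with counts of 5 and 1 without NEMO array 1, 3 and 2 without NEMO array 2, and 7 and 1 without Cre array 1. Fasl, the death ligand of effector T cells, read 2.49 and 2.40 on the NEMO arrays and 1.32, 1.47 and 1.56 on the Cre arrays and rose by 0.99 ± 0.11. Casp8, the initiator caspase that also blocks necroptosis, fell by 0.57 ± 0.11.

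Naive-cell transcripts were lower and transcripts of antigen-experienced cells higher. In bulk RNA, fewer cells of a type and less RNA per cell cannot be told apart. Of 25 genes of naive and quiescent T cells, 20 fell and 2 rose, with a median of -1.34. Ccr7, which guides naive cells to lymph nodes, read 4.79 and 4.60 on the NEMO arrays and 7.97, 7.80 and 7.65 on the Cre arrays, and fell by 3.11 ± 0.15 (adjusted p = 1.4e-07). Igfbp4, a binding protein of insulin-like growth factors, fell by 3.28 ± 0.20. Without NEMO array 1 no gene of this list rose, and without NEMO array 2 only 1 did.

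All 24 tested genes of antigen-experienced cells rose, with a median of 2.25. The count was 24 under each other scaling and background correction and 23 when either NEMO array was left out. Lgals3, a galectin induced on activation, read 5.83 and 5.78 against 2.55, 2.32 and 2.08 and rose by 3.49 ± 0.29. Anxa1, an annexin of activated cells, read 4.04 and 4.17 against 0.74, 0.56 and 0.80 and rose by 3.40 ± 0.25. The inflammatory chemokine receptor Ccr2 rose by 3.09 ± 0.39. Cxcr6, a receptor of effector cells, lies in the dim corner of Cre array 2, where it read -5.84 against 3.89 and 4.43: its difference was 5.91 ± 2.24 with that array and 2.58 without it (adjusted p = 0.0059), and with that array kept it was not called without NEMO array 1 (5.93, adjusted p = 0.142) or NEMO array 2 (5.89, adjusted p = 0.149).

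**Figure D3:**
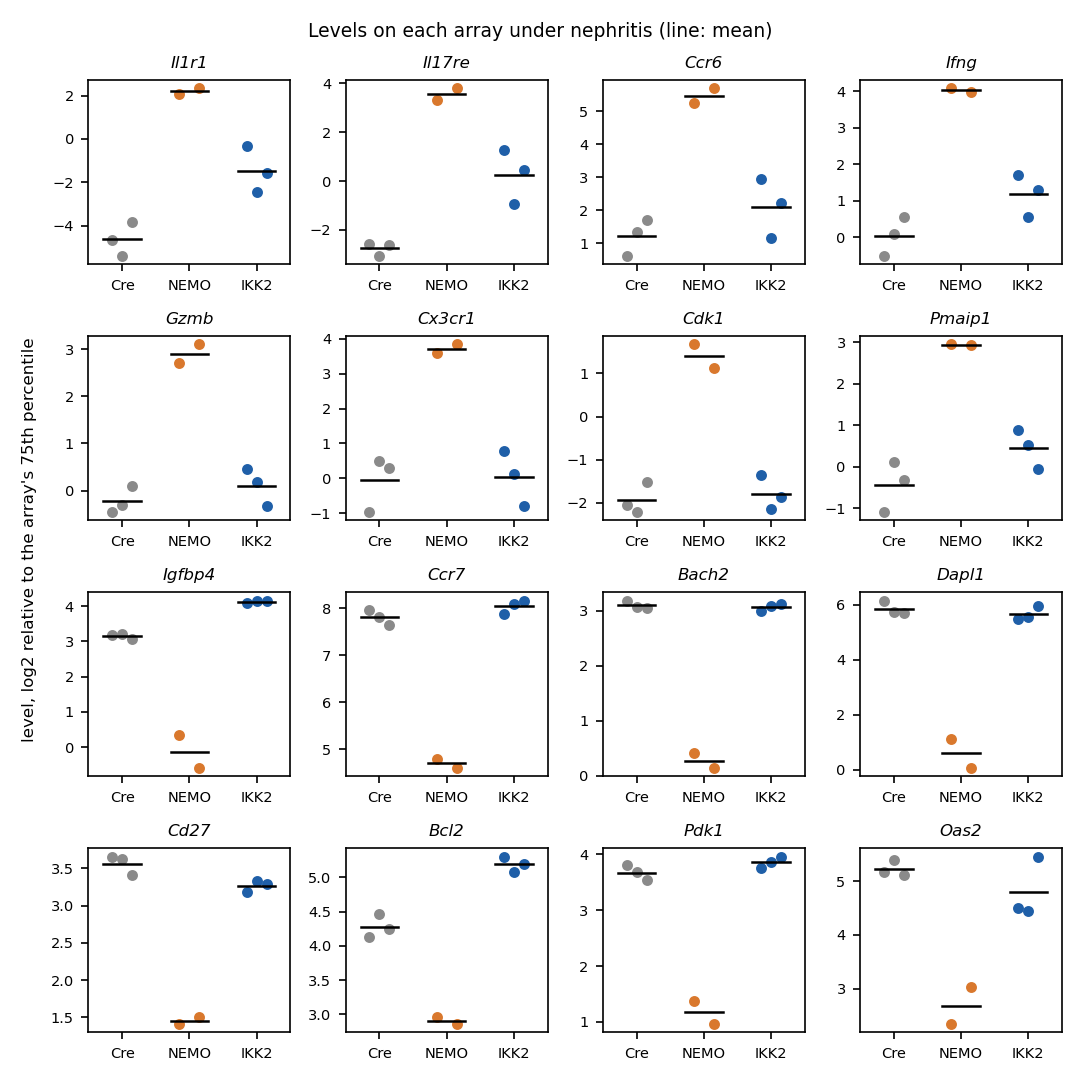
Level on each nephritic array (log2 relative to the 75th percentile, y axis) for 16 genes, with 3 Cre, 2 NEMO and 3 IKK2 points per gene. The NEMO points lie below the Cre points for Ccr7 (4.79 and 4.60 against 7.65 to 7.97) and above them for Pmaip1 (2.94 and 2.93 against -1.09 to 0.12).

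Most genes of the interleukin-17 and T helper 1 programmes rose, whereas other helper T-cell lists were mixed. Of 13 genes of the interleukin-17 programme 12 rose and none fell, with a median of 3.76. Il23r was not well above background on the Cre arrays and was at least 21.5-fold higher in NEMO (adjusted p = 0.000199), and Il17a, the cytokine itself, at least 3.48-fold (adjusted p = 0.000402). Ccr6, a chemokine receptor of these cells, rose by 4.26 ± 0.54: its readings were 5.25 and 5.70 against 0.61, 1.34 and 1.69.

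The T helper 1 list had 15 of 18 genes higher and 1 lower, with a median of 2.41. Il18rap, a receptor chain for interleukin-18, read 2.0 and 1.90 against -2.17, -1.76 and -1.45 and rose by 3.75 ± 0.51. Of 14 genes of cytotoxic granules 12 rose and 2 fell (median 1.38). Both that fell encode parts of the killing machinery, the pore protein gene Prf1 (-0.81 ± 0.18) and the granule membrane gene Lamp1 (-0.41 ± 0.10, not called with median scaling).

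The T helper 2 list was mixed, with 6 of 13 genes higher, 1 lower and a median of 0.68. Ptgdr2, the prostaglandin D2 receptor of these cells, was at least 2.98-fold higher (adjusted p = 0.00223; not well above background on the Cre arrays), and the chemokine receptor Ccr4 rose by 2.38 ± 0.35. The cytokine Il4 overlapped between the groups (0.76 and 0.15 against 0.12, 0.48 and 0.52). Its receptor Il4ra, in contrast, read 0.09 and 0.01 against 2.39, 2.13 and 2.20 and fell by 2.19 ± 0.17. A further Il4ra probe differed by -0.10.

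Regulatory T-cell genes also went both ways. Foxp3, which defines these cells, read 0.11 and 1.05 on the NEMO arrays and -0.43, 0.50 and 0.88 on the Cre arrays (0.26 ± 0.35, adjusted p = 0.563), and Ctla4 differed by 0.02 ± 0.30. Neither can be called at this spread. The inhibitory receptor Tigit rose by 2.67 ± 0.51, while the transcription factor Ikzf4 fell by 1.40 ± 0.16 and the folate receptor gene Izumo1r by 1.30 ± 0.13. In all, 8 of 18 genes rose and 3 fell (median 0.35), the third of these being Gpr83, which was not well above background in either group, and without NEMO array 2 the counts were 4 and 4. For follicular helper cells 5 of 14 rose and 2 fell (median 0.61, but 0.05 without Cre array 2 or without its dim corner). With 50% called, the follicular list was near the 48.4% of all genes. Pdcd1, which encodes PD-1, read 3.31 and 3.50 against 1.24, 1.99 and 2.22 and rose by 1.59 ± 0.34, whereas Bcl6, the factor that defines follicular helper cells, differed by -0.22 ± 0.10 and was not called. Follicular counts were 3 and 2 without NEMO array 1, 3 and 0 without NEMO array 2, and 3 and 3 without Cre array 1.

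Of 19 chemokine receptors and related traffic genes 14 rose and 2 fell, with a median of 2.24. The 2 that fell were Ccr7 and S1pr1, the receptor by which lymphocytes leave lymphoid organs, which read 4.19 and 4.07 on the NEMO arrays and 5.25, 5.33 and 5.03 on the Cre arrays (-1.08 ± 0.13). Its relative S1pr5 rose by 3.14 ± 0.67. Cx3cr1, the fractalkine receptor of effector cells, read 3.59 and 3.83 against -0.96, 0.49 and 0.29 and rose by 3.77 ± 0.63 (adjusted p = 0.000507).

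Among integrins and adhesion molecules the split was similar, with 14 of 21 higher and 5 lower (median 0.52). Itga1, the collagen-binding subunit of tissue-resident cells, read 0.22 and 0.62 against -2.39, -2.11 and -1.77 and rose by 2.51 ± 0.38. The laminin-binding subunit Itga6 read 4.30 and 4.23 against 6.30, 6.22 and 6.17 and fell by 1.96 ± 0.11. Icam2 fell by 0.92 ± 0.10.

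Genes of cell division rose almost without exception. Of 25 mitotic genes 24 rose, with a median of 2.68, and the remaining gene, the kinetochore gene Cenpf, lay near background with overlapping groups (0.90 ± 1.05). Kif4, a chromosome-arranging kinesin, read -0.07 and -0.31 on the NEMO arrays and -3.77, -5.07 and -2.72 on the Cre arrays and rose by 3.67 ± 0.52. The mitotic kinase gene Cdk1 read 1.67 and 1.12 against -2.06, -2.21 and -1.51 and rose by 3.32 ± 0.29. Other Cdk1 probes differed by -0.20 and 3.18.

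For DNA replication 25 of 27 genes rose and none fell, with a smaller median of 0.92. Rrm2, a ribonucleotide reductase subunit, read 5.11 and 4.88 against 1.96, 2.0 and 2.76 and rose by 2.75 ± 0.29. Cdc6, which loads the replicative helicase, rose by 2.66 ± 0.32. The brakes of the cell cycle were split, 5 of 14 higher and 4 lower. Cdkn2a was not well above background on the Cre arrays and was at least 18.2-fold higher in NEMO (adjusted p = 1.96e-05), and Cdkn1a, which encodes p21, rose by 2.14 ± 0.54 but was not called for the mean of its probes. Without NEMO array 2 only 1 brake fell.

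Promoters of the mitotic genes are shown because they share a short element. The CHR element, searched as TTTGAA on both strands of the same windows, was present for 20.2% of all genes with a promoter and 15.1% of those tested. It was found for 15 of 21 mitotic genes with a promoter (71.4%) and 2 of 22 replication genes (9.09%). The E2F site TTTCCCGC, found for 2.1% of tested genes, was present for 4 of the 22 replication genes (18.2%) and none of the 21 mitotic genes. Windows are given for 2 mitotic genes that rose and hold a match, Kif4 (chrX:100625815-100626094, plus strand, 1 match just after the start) and Cdk1 (chr10:69352883-69353162, minus strand, 2 matches, the first 71 bases before the start), printed 5′ to 3′ on the strand of the gene with TTTGAA in capitals.
Kif4: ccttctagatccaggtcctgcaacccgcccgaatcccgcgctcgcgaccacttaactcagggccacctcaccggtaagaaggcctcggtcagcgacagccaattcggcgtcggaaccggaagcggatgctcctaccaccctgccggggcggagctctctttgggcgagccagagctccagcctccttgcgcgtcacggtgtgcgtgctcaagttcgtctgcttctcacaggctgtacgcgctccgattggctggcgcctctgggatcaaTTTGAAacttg
Cdk1: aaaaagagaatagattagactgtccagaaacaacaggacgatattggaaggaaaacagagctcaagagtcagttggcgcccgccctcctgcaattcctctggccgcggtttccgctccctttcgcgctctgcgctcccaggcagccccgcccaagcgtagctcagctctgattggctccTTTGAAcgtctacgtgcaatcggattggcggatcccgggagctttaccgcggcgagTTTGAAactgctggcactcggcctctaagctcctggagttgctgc

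Interferon-stimulated genes tended downward. Of 24, 12 fell and 3 rose, with a median of -0.61. Oas2, an antiviral RNA sensor, read 2.34 and 3.03 on the NEMO arrays and 5.18, 5.4 and 5.12 on the Cre arrays and fell by 2.55 ± 0.29. Oasl1 fell by 2.48 ± 0.25, Ifit3 by 2.41 ± 0.47 and Ifit2 by 2.01 ± 0.15. The count depended on single arrays: it was 2 higher and 7 lower without NEMO array 1 (median -0.31), 0 higher and 13 lower without NEMO array 2, and 1 higher and 8 lower without Cre array 1. Their response element, the interferon-stimulated response element core, searched by that name on both strands, was present for 3.99% of all genes with a promoter, 3.95% of those tested and 10 of 18 interferon-stimulated genes (55.6%). Ifit3 (chr19:34583279-34583558, plus strand) held 2 matches, the first 156 bases before the start, in capitals below as the reverse complement.
Ifit3: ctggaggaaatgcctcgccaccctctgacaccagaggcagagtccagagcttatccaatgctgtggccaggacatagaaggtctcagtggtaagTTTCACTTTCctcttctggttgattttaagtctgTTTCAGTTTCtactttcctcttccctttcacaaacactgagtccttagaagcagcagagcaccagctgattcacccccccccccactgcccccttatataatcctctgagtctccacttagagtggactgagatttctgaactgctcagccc

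Of 19 glycolytic genes 8 rose and 2 fell (52.6% called), with a median of 0.04. Hk2, the inducible hexokinase, read -0.63 and -0.61 on the NEMO arrays and -2.96, -3.13 and -3.16 on the Cre arrays and rose by 2.46 ± 0.32, and the lactate exporter gene Slc16a3 rose by 1.71 ± 0.14. Pdk1, an inhibitory kinase of pyruvate dehydrogenase, read 1.38 and 0.96 against 3.80, 3.68 and 3.54 and fell by 2.50 ± 0.15. Ldhb fell by 1.80 ± 0.14. Respiratory-chain genes had 2 of 20 higher and 3 lower (median -0.06, but 0.01 to 0.11 under the other scalings and background correction), and 1 proteasome gene of 19 rose (median -0.08, but 0.07 with quantile normalisation and 0.09 with median scaling).

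Cytosolic ribosomal protein genes fell, 21 of 22, with a median of -0.73, and Rpl4 was the exception with overlapping groups (0.07 ± 0.18). Rps18 read 7.28 and 6.92 on the NEMO arrays and 8.71, 8.39 and 8.39 on the Cre arrays, a fall of 1.39 ± 0.21, and Rps19 fell by 1.18 ± 0.14. Scaling mattered here: 11 fell and 3 rose after quantile normalisation (median -0.18), and 12 fell in the authors' deposited log2 values (median -0.35).

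Proximal T-cell receptor signalling genes had 8 of 21 lower and none higher, with a median of -0.10 that became 0.06 with median scaling, 0.08 with quantile normalisation and 0.03 in the authors' deposited log2 values. Cd247, the ζ chain of the receptor, read 2.01 and 1.70 against 2.79, 2.84 and 2.72 and fell by 0.93 ± 0.13. Among early-response genes, which mark recent receptor signals, 5 of 17 fell and 1 rose. Their median was 0.07, beside -0.14 for all genes. Of this list 35.3% were called, against 48.4% of all genes, of which 29.6% fell. Egr1 fell by 0.84 ± 0.14 and Nr4a1 by 0.82 ± 0.12. Leaving out NEMO array 1, NEMO array 2, Cre array 1 or Cre array 3 left 3 lower. Dusp2, in the dim corner of Cre array 2, differed by 1.32 ± 1.25 with that array and by -0.58 without it (adjusted p = 0.02).

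Cytokine receptors and their feedback genes had 7 of 19 lower and 3 higher (median -0.12, but 0.05 with median scaling). Of this list 52.6% were called, near the 48.4% of all genes. Il6st, the shared chain gp130 of the interleukin-6 receptors, read 1.77 and 1.70 on the NEMO arrays and 3.63, 3.53 and 3.53 on the Cre arrays and fell by 1.83 ± 0.14. The feedback inhibitors Socs2 and Cish, both induced by STAT5, rose by 2.25 ± 0.36 and 1.57 ± 0.24. In the unfolded protein response 11 of 18 genes rose and 2 fell (median 0.31), with 6 and 2 when either NEMO array was left out and 7 and 2 without Cre array 2. The sensors Atf6 and Ern1 rose by 2.07 ± 0.20 and 1.66 ± 0.23, and the stress-induced Trib3 and Ddit3 fell by 1.45 ± 0.23 and 1.03 ± 0.16.

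Markers of other cells that a CD4 gate could hold differed between the groups for some cell types, and their part in the differences above was not tested. T-cell identity genes were well above background on all 5 arrays for 14 of 14 members. Of these 7 fell and none rose (50% called), while over all genes 48.4% were called and 29.6% fell. The median was -0.29, but 0.09 after quantile normalisation and 0.02 in the authors' deposited log2 values. Their summed level was 10.60 to 10.61 on the NEMO arrays and 10.74 to 10.90 on the Cre arrays.

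Innate-like and innate lymphoid markers share several genes with the interleukin-17 programme. Of 14 innate lymphoid markers 10 rose and 3 fell (median 2.17; 10 and 1 without NEMO array 1), with summed levels of 8.74 to 8.88 against 8.61 to 8.81. Tmem176a read 3.02 and 3.07 on the NEMO arrays and -1.62, -0.77 and -1.12 on the Cre arrays and rose by 4.22 ± 0.38. For γδ and innate-like T cells 5 of 10 rose and 3 fell (median 1.02; 5 and 1 without NEMO array 2), with summed levels of 5.20 to 5.32 against 5.01 to 5.09. Cd163l1, a scavenger receptor of γδ T cells, read 3.23 and 3.66 against -0.97, -1.59 and -0.73 and rose by 4.54 ± 0.55, while Zbtb16, the factor PLZF of innate-like T cells, fell by 1.34 ± 0.30.

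CD8 and natural killer markers rose in 11 of 18 cases and fell in 2 (median 1.30; 7 and 2 when either NEMO array was left out). This list shares genes with the cytotoxic granule list, among them Gzmb, which rose, and Prf1, which fell. Klrk1, the receptor NKG2D, rose by 2.82 ± 0.60. Cd8a read -2.12 and -2.32 on the NEMO arrays and -4.94, -2.90 and -3.87 on the Cre arrays, a rise of 1.68 ± 0.47. This rise was not called without NEMO array 1 (1.59), with normexp background correction or when only the arrays compared were fitted. Cd8b1, in contrast, fell by 0.91 ± 0.18. Summed over this list, levels were 6.98 to 7.0 against 4.78 to 5.93.

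B-cell markers had 5 of 18 higher and 1 lower (median 0.55), with summed levels of 7.59 to 7.68 against 4.03 to 7.13. The counts were 3 and 0 without NEMO array 1, 2 and 0 without NEMO array 2, 8 and 0 without Cre array 2 and 7 and 0 without Cre array 3. The defining genes Cd79a (-0.51 ± 0.35) and Ms4a1 (1.02 ± 0.57) were not called, and the groups overlapped for both. For plasma cells 4 of 9 rose, or 8 without Cre array 1, with summed levels of 6.83 to 7.45 against 5.82 to 6.71. The 4 were Eaf2, Irf4, Prdm1 and Xbp1, while Jchain, Mzb1 and Derl3 were not called with all arrays kept. Jchain overlapped, at 5.79 and 3.64 against 5.50, 1.33 and 2.40.

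Of 18 myeloid markers 10 rose and 1 fell (median 1.65), with 4 and 1 without NEMO array 1, 4 and 0 without NEMO array 2, and 7 and 1 without Cre array 1 (median 1.10). C1qc, a complement gene of macrophages, read 0.13 and -0.30 on the NEMO arrays and -6.55, -2.31 and -2.47 on the Cre arrays. Its rise of 3.69 ± 1.12 was 2.30 without Cre array 1 and was not called without NEMO array 1 (3.48, adjusted p = 0.0905) or NEMO array 2 (3.91, adjusted p = 0.064). Of 12 dendritic-cell markers 9 rose (median 2.23), with 3 without NEMO array 1, 2 without NEMO array 2 and 5 without Cre array 1 (median 1.40). Summed levels were 7.03 to 7.29 against 6.69 to 7.19 for myeloid markers and 8.31 to 8.38 against 7.68 to 8.08 for dendritic-cell markers.

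Neutrophil, erythroid and platelet markers varied among arrays of 1 group. Of 13 neutrophil markers 6 rose and 1 fell (median 1.31); without NEMO array 1 none rose and the median was -0.03, without Cre array 1 the counts were 1 and 1, and without Cre array 2 they were 1 and 2. S100a9 read 5.99 and 3.78 on the NEMO arrays and -0.09, 0.62 and 3.86 on the Cre arrays, overlapping groups. Its difference of 3.42 ± 1.23 was not called without NEMO array 1 (2.32, adjusted p = 0.262), Cre array 1 (2.65, adjusted p = 0.12) or Cre array 2 (3.0, adjusted p = 0.0982). Hba-a1, a haemoglobin gene, read 6.67 and 5.63 against 2.49, 6.45 and 8.67. Of 13 erythroid markers 1 fell and none rose: Gata1 fell by 3.08 ± 0.21. Platelet markers had 4 of 12 higher and 2 lower, with counts of 1 and 1 without NEMO array 1, 2 and 1 without NEMO array 2 or Cre array 1, 6 and 1 without Cre array 2 and 8 and 2 without Cre array 3. Of the platelet list 50% were called, near the 48.4% of all genes. Summed levels were 7.82 to 8.20 against 8.00 to 8.23 for neutrophil, 7.93 to 8.89 against 5.13 to 10.48 for erythroid and 4.71 to 4.72 against 5.24 to 5.30 for platelet markers.

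**Figure D4:**
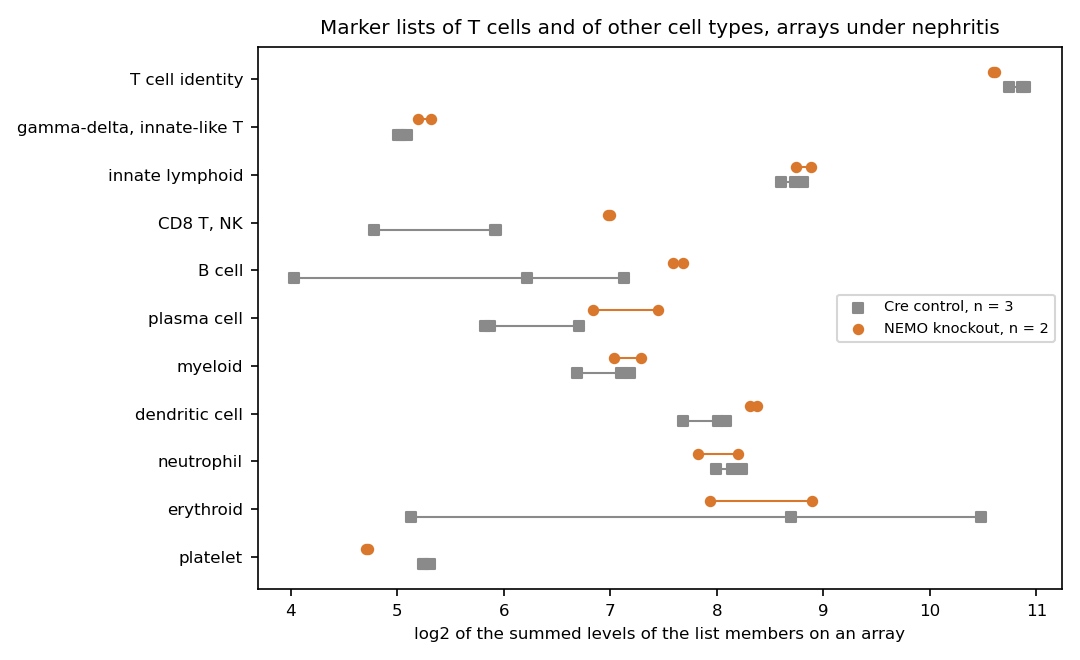
Summed level of each marker list (log2 of the sum over its tested members, x axis) on each Cre and NEMO array under nephritis, 1 point per array. The NEMO points lie above all Cre points for CD8 and natural killer markers (6.98 to 7.0 against 4.78 to 5.93), a list that includes Gzmb and Prf1. The erythroid list spans 5.13 to 10.48 among the Cre arrays alone.

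Without nephritis the same knockout against Cre comparison uses none of these 5 arrays, although its NEMO arrays are on the same slide as the nephritic ones. There 6317 genes were called (43%), 3087 higher (21%) and 3230 lower (22%). Genes that rose in both comparisons numbered 2304, which is 83.5% of those that rose under nephritis and 74.6% of those that rose without it. Those that fell in both numbered 2613 (60.2% and 80.9%), and 17 genes were called in opposite directions. Ccr6 rose by 4.20 without nephritis, Ccr7 fell by 2.20 and Il1r1 rose by 6.74, beside 4.26, -3.11 and 6.81 under nephritis. The median difference of B-cell markers was 2.96 without nephritis and 0.55 with it, while the test of the difference between these comparisons called 1 of the 18.

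Few genes passed a test of the difference between these 2 comparisons, in which nephritis and slide cannot be told apart for the Cre arrays. The knockout effect with nephritis minus that without was called for 39 of 14675 genes (0.266%), 2 higher (0.0136%) and 37 lower (0.252%), while 1480 had an unadjusted p under 0.05. For 9 of the 39 neither nephritic group was well above background. Bach2, a repressor that keeps T cells naive, read 0.41 and 0.15 on the nephritic NEMO arrays and 1.12 and 1.25 on the untreated ones, while the Cre arrays lay between 3.06 and 3.19 with nephritis and between 2.78 and 3.14 without. It fell by 2.83 under nephritis and by 1.78 without, a difference of -1.05 (adjusted p = 0.038). Amigo2, an adhesion molecule, differed by -3.63 under nephritis and -1.74 without (-1.89, adjusted p = 0.0025), and Gprc5b, a membrane receptor, by -3.49 and -1.32 (-2.16, adjusted p = 0.046). Abcb11 was not well above background on the nephritic NEMO arrays, where it was at least 9.86-fold lower than Cre, and differed by -2.55 without nephritis. The count of 39 was not stable: it was 0 with another background correction (871 genes at an unadjusted p under 0.05), 1 in the authors' deposited log2 values and between 13 and 50 when 1 array at a time was left out (13 without NEMO array 2 under nephritis, 19 without Cre array 2 and 24 without Cre array 3).

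**Figure D5:**
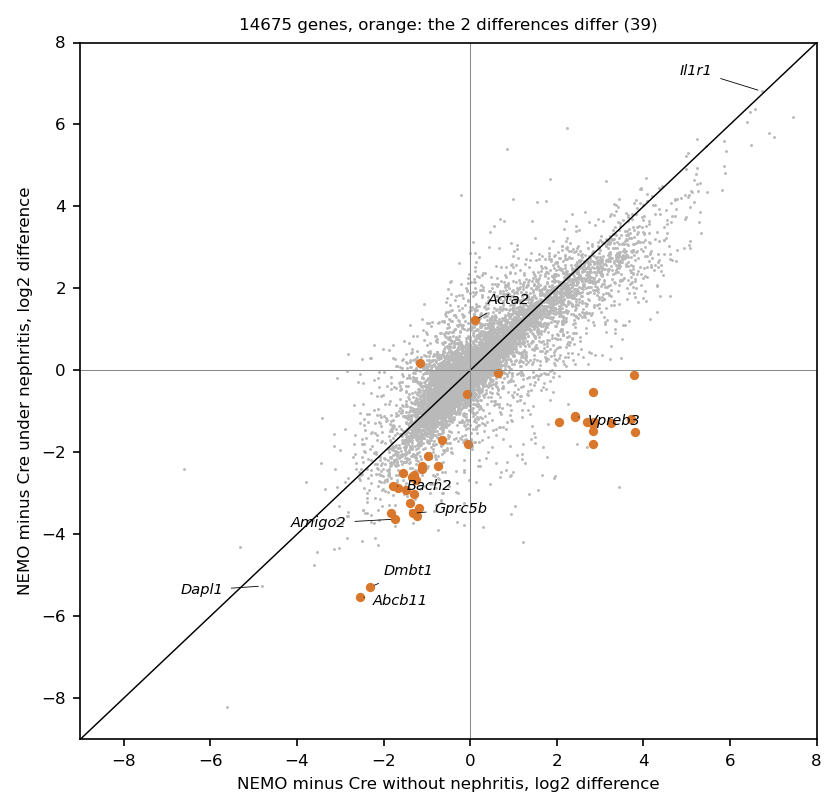
NEMO minus Cre (log2) without nephritis (x axis) against the same under nephritis (y axis), 1 point per tested gene; orange marks the 39 genes whose effect differed between them. Orange points lie mostly below the line of equal effect, such as Bach2 at -1.78 and -2.83, and Il1r1 lies near it at 6.74 and 6.81.

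Against the IKK2 knockout under the same nephritis, NEMO arrays differed at 6767 genes (46.1%), 2783 higher (19%) and 3984 lower (27.1%). IKK2 arrays differed from the same Cre arrays at 379 genes (2.58%), 146 higher (0.995%) and 233 lower (1.59%). The knockouts share the 3 Cre arrays as controls, so their differences are given side by side and the difference between the knockouts is tested directly. IKK2 and Cre arrays were on 1 slide and NEMO arrays on another.

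The noncanonical subunits Nfkb2 and Relb were higher in NEMO than in IKK2, but not they alone. Of the 4 subunits tested, Rela and Nfkb1 included, 3 were called higher in NEMO than in IKK2 and 1 lower (median 0.65). Nfkb2 read 1.38, 1.01 and 1.09 on the IKK2 arrays, below the Cre arrays (-0.65) and the NEMO arrays, which were higher by 1.23 ± 0.14 (adjusted p = 3.9e-05). Relb read 2.58, 2.28 and 2.46 on the IKK2 arrays and was higher in NEMO by 0.89 ± 0.14 (adjusted p = 0.00032); against Cre the differences were -0.69 for IKK2 and 0.20 for NEMO. Map3k14 was lower in NEMO than in IKK2 by -0.67 ± 0.12 and Traf3 higher by 0.68 ± 0.11. For Ltb the knockouts were close, with -0.64 for NEMO and -0.67 for IKK2 against Cre and 0.03 ± 0.11 between them (adjusted p = 0.86).

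Interleukin-2 and its receptor chain moved together within each knockout, but opposite ways in NEMO and IKK2. Il2 read -2.71, -4.08 and -3.45 on the IKK2 arrays, which is -1.64 relative to Cre, whereas NEMO was 2.45 above Cre, and the knockouts differed by 4.09 ± 0.32 (adjusted p = 2.5e-06). Il2ra differed from Cre by -1.72 in IKK2 and 1.01 in NEMO, or 2.72 ± 0.29 between them. Tnfsf11 did so by -1.0 and 1.33, or 2.33 ± 0.25. Bcl2 went the other way: 0.91 above Cre in IKK2, -1.38 in NEMO, and -2.29 ± 0.13 between the knockouts.

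Regulatory T-cell genes that overlapped between NEMO and Cre separated from IKK2. Foxp3 read -0.92, -0.95 and -0.96 on the IKK2 arrays, 1.52 ± 0.35 below the NEMO arrays (adjusted p = 0.0043), and Ctla4 was higher in NEMO by 1.2 ± 0.30. Il1r1 rose against Cre in both knockouts, by 3.15 in IKK2 and 6.81 in NEMO, and NEMO exceeded IKK2 by 3.65 ± 0.65 (adjusted p = 0.00076). The list of IKK2 calls varied with the arrays kept, from 121 without IKK2 array 2 to 252 without Cre array 1, and lay between 206 and 252 without any other single Cre or IKK2 array.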

How the data were processed

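RNA of splenic CD4+ T cells was hybridised to 1-colour Agilent arrays. The deposited scanner files hold processed signal intensity per spot, background-subtracted by the authors with Feature Extraction (10.5 per the submitters' processing notes, 10.7.3.1 per the file headers), and a deposited table holds the authors' log2 values. Here log2 of the processed signal was scaled by each array's 75th percentile, spots of a probe were averaged, and 34938 probes passed a filter that asked for a signal well above background on 2 or more arrays. Of 55681 probes 27235 had 1 gene symbol and 28446 none. Per gene the probe with the highest mean was used, giving 14675 genes. Limma 3.58.1 (R 4.3.3) was fitted to all 16 arrays, with 11.8 total degrees of freedom and Benjamini-Hochberg adjustment. The number of arrays limits the precision.

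"At least N-fold" compares the mean of the bright group with a floor for the dim group. For each dim array the floor is its own reading or, if higher, the weakest signal that still counted as well above background on that array. On simulated data with the groups of this comparison (14675 genes, 100 changed by each size) 69% of 1-log2 and 91% of 2-log2 changes were recovered, with 11 false calls. The simulation drew independent noise around a common mean per gene, without slide or scaling effects. Far fewer genes changed in it than were called in the data (48.4%), so its rates need not hold for them. Alternatives were normexp background correction (offset 50, on median signals), 4 other scalings including the authors' log2 values, other filters, the mean of probes, another prior, only the arrays compared, a replicate block and leaving out each array. A fit without the dim corner of Cre array 2 was chosen after seeing the data. Same-numbered arrays correlated with 0.0007 and 0.061 in their deviations from group means. With 2 NEMO arrays these deviations mirror each other, so the values cannot tell whether the numbers pair the arrays. The labels do not tie same-numbered samples to each other, and no pairing was used in the main fit.

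The comparison and gene lists were chosen with earlier results of these data known. Genes named are members of the kinase, subunit, inhibitor and noncanonical lists, up to 4 calls each way with the largest difference in every other list, the 12 highest and 12 lowest over all genes, the 8 highest and 8 lowest of the difference with nephritis and of NEMO against IKK2, and the 3 best detected uncalled members where 50% or fewer of a list were called. Cd40, Il2ra, Tnf, Il17a, Il4, Foxp3, Ctla4, Cenpf, Rpl4, Cd4, Cd8a, Cd79a and Ms4a1 were named as defining markers, single exceptions or after their values were seen. Some items are not reported here.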

Additional observations from a re-analysis of the deposited data

Results flagged for a closer look

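Of the 39 genes whose knockout effect differed with nephritis by a test of the difference itself (limma, adjusted p under 0.05 over all genes tested), 11 were among the genes named. The nephritic and untreated Cre arrays were on different slides, so nephritis and slide cannot be told apart there. Acta2, smooth-muscle actin, was higher by 1.22 under nephritis and by 0.11 without, a difference of 1.11. Vpreb3, a gene of B-cell development, differed by -1.13 under nephritis and by 2.41 without, a difference of -3.54. Its call under nephritis was lost without NEMO array 1 (-1.21, adjusted p = 0.108), NEMO array 2 (-1.05, adjusted p = 0.163), Cre array 2 (-0.75, adjusted p = 0.132) or Cre array 3 (-1.02, adjusted p = 0.095).

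The other genes fell further under nephritis. The differences were -2.98 for Dmbt1 (-5.29 against -2.30), -2.98 for Abcb11 (-5.53 against -2.55), -2.32 for Ephx4 (-3.54 against -1.23) and -2.18 for Zfp879 (-3.36 against -1.18). For Gprc5b the difference was -2.16 (-3.49 against -1.32), for Amigo2 -1.89 (-3.63 against -1.74) and for Aldh1l1 -1.86 (-3.24 against -1.39). It was -1.65 for Cxcr1 (-3.48 against -1.82), whose probe was well above background on 1 of the 2 nephritic NEMO arrays, and -1.05 for Bach2 (-2.83 against -1.78). Dmbt1, Abcb11 and Zfp879 were not well above background on the nephritic NEMO arrays, so their values there depend on signal at the background. A second Zfp879 probe differed by 0.30 under nephritis.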

How the results depend on the processing

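Of 170 named genes 139 were called, 99 kept the call under every alternative and none of the called genes turned sign. Of 31 uncalled genes 13 turned sign in at least 1 alternative, and 1 of these was then called: Dusp2, at -0.58 without Cre array 2 and with its dim corner left out, and between -0.58 and 2.41 with 1 array left out. The number of genes that fell (4338) was 2099 with median scaling, 7634 without the filter on dim probes and 2860 to 4336 with 1 array left out; all calls together ranged from 4805 to 6936 and higher calls from 1945 to 2626. The number of genes whose knockout effect differed with nephritis (39) was 0 with normexp, 23 with the percentile over detected probes, 19 with quantile normalisation, 18 with median scaling, 1 in the authors' log2 values, 14 without the filter, 5 with only the arrays compared and 13 to 50 with 1 array left out. IKK2 against Cre (379) gave 202 with normexp, 197 without the filter, 49 with only the arrays compared and 121 to 252 with 1 array left out. With the replicate number as a block the counts were 7070 for NEMO against Cre, 19 for the difference with nephritis and 266 for IKK2 against Cre. NEMO against IKK2 gave 4596 to 6129 calls and NEMO against Cre without nephritis 4339 to 5798 with 1 array left out. The cause of these shifts was not tested. With 2 NEMO arrays, all on 1 slide, neither the spread among knockout animals nor the part of the slide can be told from these data, and probes near background have only bounds.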
